A study of Macaca mulatta with 304 samples.

Results

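Basophils and mast cells share a small set of genes for IgE sensing, histamine and granule proteases. The genes described here were 7 such symbols chosen by name: HDC, CPA3, MS4A2, MS4A3, GATA2, ENPP3 and FCER1A. A row for 6 of the 7 was found among the 21070 genes of the count table. Only 4 of these 6 (CPA3, MS4A2, GATA2 and FCER1A) reached 3 counts in 80% of the 304 samples, the condition for entering the tests over 13751 genes. HDC and ENPP3 were tested in a fit with no filter on low counts (20708 genes). MS4A3 had no row under its own symbol. A row named LOC697943 matched MS4A3 in the RefSeq annotation, where 3 of its 4 transcripts encode MS4A3 and 1 encodes the unrelated oocyte-secreted protein 2, so its values are given apart and are not counted with the 6.

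The blood came from 28 rhesus macaques (14 females, 14 males) given 1 irradiation of the thorax on Day 0. The 9.8 Gy group held 12 animals (6 of each sex) and the 10.7 Gy group held 16 (8 of each sex). The control of an animal was its own unirradiated draw of Day -2, which 24 of the 28 animals had, 12 in each dose group. The 280 samples drawn after irradiation fell into an early window (Day 3 to 21), a medium window of 95 samples (after Day 21 to Day 90) and a late window of 53 samples (after Day 90). All animals received tramadol or buprenorphine from Day 4 to Day 25, and animals with rapid breathing received dexamethasone, a glucocorticoid. Which draws followed dexamethasone is not in the labels used here. Animals that met the criteria for euthanasia left the study, so late samples came from the 16 animals still followed, 12 of them from the 9.8 Gy group. Blood was lysed whole in the collection tube with no separation of cells. Fewer cells of a type and less RNA per cell therefore cannot be told apart in any result below.

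Basophils are the rarest granulocytes of blood. They and the tissue-resident mast cells carry the high-affinity IgE receptor, which on crosslinking by antigen triggers the release of histamine and proteases stored in granules. FCER1A encodes the alpha chain that binds IgE and is also expressed by dendritic cells of primates, and MS4A2 encodes the beta chain that amplifies the signal. HDC is the enzyme that makes histamine from histidine, CPA3 is a carboxypeptidase of the granules, and ENPP3 is the surface nucleotidase known as CD203c, used to recognise basophils. GATA2 is a transcription factor of blood stem cells, basophils, mast cells and megakaryocytes. MS4A3 is a membrane protein of granulocyte progenitors and basophils.

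GATA2 binds DNA motifs with the core GATAA, and the 250 bases just upstream of the annotated start of each gene were read from the genome build of the files (Mmul_10, RefSeq annotation). The promoters shown are those of CPA3, MS4A2, HDC and FCER1A, which were called lower in late blood and hold a match. Each GATAA or its reverse complement TTATC is in capitals. That of GATA2 is shown as a member without a match. ENPP3 was also called lower in late blood and has no match, and its promoter is not shown. All sequences shown are written on the strand of the gene. 
CPA3, chr2:50993942-50994191, plus strand: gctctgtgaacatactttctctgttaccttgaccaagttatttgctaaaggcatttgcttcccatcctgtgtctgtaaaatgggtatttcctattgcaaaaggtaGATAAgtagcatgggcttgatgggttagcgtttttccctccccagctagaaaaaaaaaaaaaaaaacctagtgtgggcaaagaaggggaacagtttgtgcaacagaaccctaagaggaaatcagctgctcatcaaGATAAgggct
MS4A2, chr14:14032217-14032466, minus strand: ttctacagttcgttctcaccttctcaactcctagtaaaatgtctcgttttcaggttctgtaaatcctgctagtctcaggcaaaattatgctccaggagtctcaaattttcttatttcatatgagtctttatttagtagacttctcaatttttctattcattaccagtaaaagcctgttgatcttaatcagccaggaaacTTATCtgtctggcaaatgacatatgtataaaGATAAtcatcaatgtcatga
HDC, chr7:26674535-26674784, minus strand: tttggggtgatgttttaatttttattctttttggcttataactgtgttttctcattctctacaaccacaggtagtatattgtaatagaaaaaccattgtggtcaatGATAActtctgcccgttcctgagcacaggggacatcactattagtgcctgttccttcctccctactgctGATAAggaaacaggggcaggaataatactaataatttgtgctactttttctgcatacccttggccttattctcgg
FCER1A, chr1:91657801-91658050, minus strand: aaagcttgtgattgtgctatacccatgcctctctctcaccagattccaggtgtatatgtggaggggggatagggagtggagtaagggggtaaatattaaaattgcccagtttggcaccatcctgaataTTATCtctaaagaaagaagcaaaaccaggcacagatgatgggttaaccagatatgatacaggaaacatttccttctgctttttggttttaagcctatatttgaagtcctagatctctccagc
GATA2, chr2:148017490-148017739, plus strand: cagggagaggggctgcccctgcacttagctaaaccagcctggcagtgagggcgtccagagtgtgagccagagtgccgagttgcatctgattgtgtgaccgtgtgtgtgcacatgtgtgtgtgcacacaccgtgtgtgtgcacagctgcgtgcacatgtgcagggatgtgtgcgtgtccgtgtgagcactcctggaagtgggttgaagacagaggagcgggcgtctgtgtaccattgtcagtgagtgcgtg
At least 1 match to GATAA on either strand was present in 4 of the 6 members, against 19.5% of 20782 promoters of the same length, and at least 2 matches in 3 of the 6, against 3.69%. Relative to the annotated start, the matches began at -145 and -10 in CPA3, at -51 and -20 in MS4A2 and at -144 and -75 in HDC, and the single match of FCER1A lay close to the middle of its window. ENPP3 had none. The other motifs searched on both strands were the E-box CANNTG (5 of 6 members, 60.3% of promoters), the RUNX motif TGTGGT (2 of 6, 11.2%), the C/EBP motif TTGCNNAA (1 of 6, 8.05%) and the STAT motif TTCNNNGAA (0 of 6, 5.98%). Matches of letters are given as a description and say nothing of binding.

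The genes lie on 5 chromosomes: CPA3 at chr2:50994192-51024156 (plus strand), GATA2 at chr2:148017740-148031830 (plus), HDC at chr7:26651355-26674534 (minus), MS4A2 at chr14:14024243-14032216 (minus), ENPP3 at chr4:35206609-35305193 (plus) and FCER1A at chr1:91652507-91657800 (minus). The row LOC697943 at chr14:14042078-14067622 (minus) neighbours MS4A2. GATA2 overlaps an antisense non-coding gene, LOC114676400 (chr2:148010443-148023192, minus strand). The libraries were stranded, but the strand setting of the counting was not given in the sources used here, so GATA2 counts may hold reads of its antisense partner.

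Levels are given as normalized CPM, that is, as counts per 1000000 counts of the library after upper-quartile scaling. Libraries held 2840219 to 23638161 counts, with a median of 11697185 in controls and 6935207 in late samples. A count of 0 allowed a level of up to 0.244 CPM in the median control library and 0.458 CPM in the median late library (3 counts; this covers counting error only). The sample descriptions carry a library number, and by it the samples fell into 3 sets, called series here. Series A and B are separate runs of numbers and series C is all samples whose number is 0, and the labels do not say what the numbers stand for. By series, 20 controls were of series A and 4 of series C, while late samples were 46 of series C and 7 of series B. Control and late samples therefore differ in numbering series as well as in time. The libraries were those of blood by their markers, with CD3E, CD79A, LYZ, S100A8, PPBP and PTPRC above 0 in all 304 samples.

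Before irradiation, all members were low. CPA3 ranged from 0.273 CPM to 16.4 CPM over the 24 control samples with a median of 3.79, and FCER1A from 0.996 to 16.96 with a median of 4.88. MS4A2 had a median of 2.01 CPM (0.334 to 5.52) and HDC of 1.495 CPM (0.199 to 5.28), and neither was at 0 in any control. GATA2 was the most abundant, at 14.5 to 111.3 CPM with a median of 33.95. ENPP3 was near the limit of detection, with a median of 0.196 CPM and 7 of 24 controls at 0. Per kilobase of exon, the order of the mean levels in controls was GATA2 (11.3 ± 6.47 CPM per kb, SD, n = 24), FCER1A (5.48 ± 3.93), CPA3 (2.25 ± 1.93), MS4A2 (1.92 ± 1.14), HDC (0.724 ± 0.536) and ENPP3 (0.0657 ± 0.0640). Neighbours in this order overlapped within 1 SD, except HDC and ENPP3. The row matched to MS4A3 lay between HDC and ENPP3, at 0.125 ± 0.0835 CPM per kb.

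Animals that were high in 1 of these genes before irradiation tended to be high in others. Over the 24 controls, 1 per animal, CPA3 and FCER1A had a Pearson r of 0.83 on the log2 scale (Spearman rho 0.77, permutation p = 1e-05, the smallest 100000 resamples can give, adjusted over 15 pairs 0.00015). That r was 0.79 without the 2 animals farthest from the CPA3 median and 0.86 among the 20 controls of series A. HDC went with MS4A2 (r 0.73, rho 0.76, permutation p = 7e-05, adjusted 0.00052, r of 0.73 without the 2 farthest animals) and with GATA2 (r 0.69, rho 0.68, permutation p = 0.00019, adjusted 0.00095, r of 0.70 without the 2 farthest). In all, 9 of the 15 pairs passed an adjusted p of 0.05 by Pearson and 7 by Spearman. ENPP3 was in none of them, with r between -0.05 (FCER1A) and 0.36 (GATA2). Females and males did not differ by the test before irradiation: none of the 4 tested members was called by edgeR or DESeq2 and none had an unadjusted p under 0.05, while 0.0145% of the 13751 genes were called lower and 0.0509% higher in females. In the edgeR fit with no filter, HDC and ENPP3 were not called either. The log2 difference for CPA3 was -0.51 (SE 0.43), so a difference of that size could not be resolved.

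**Figure D1:**
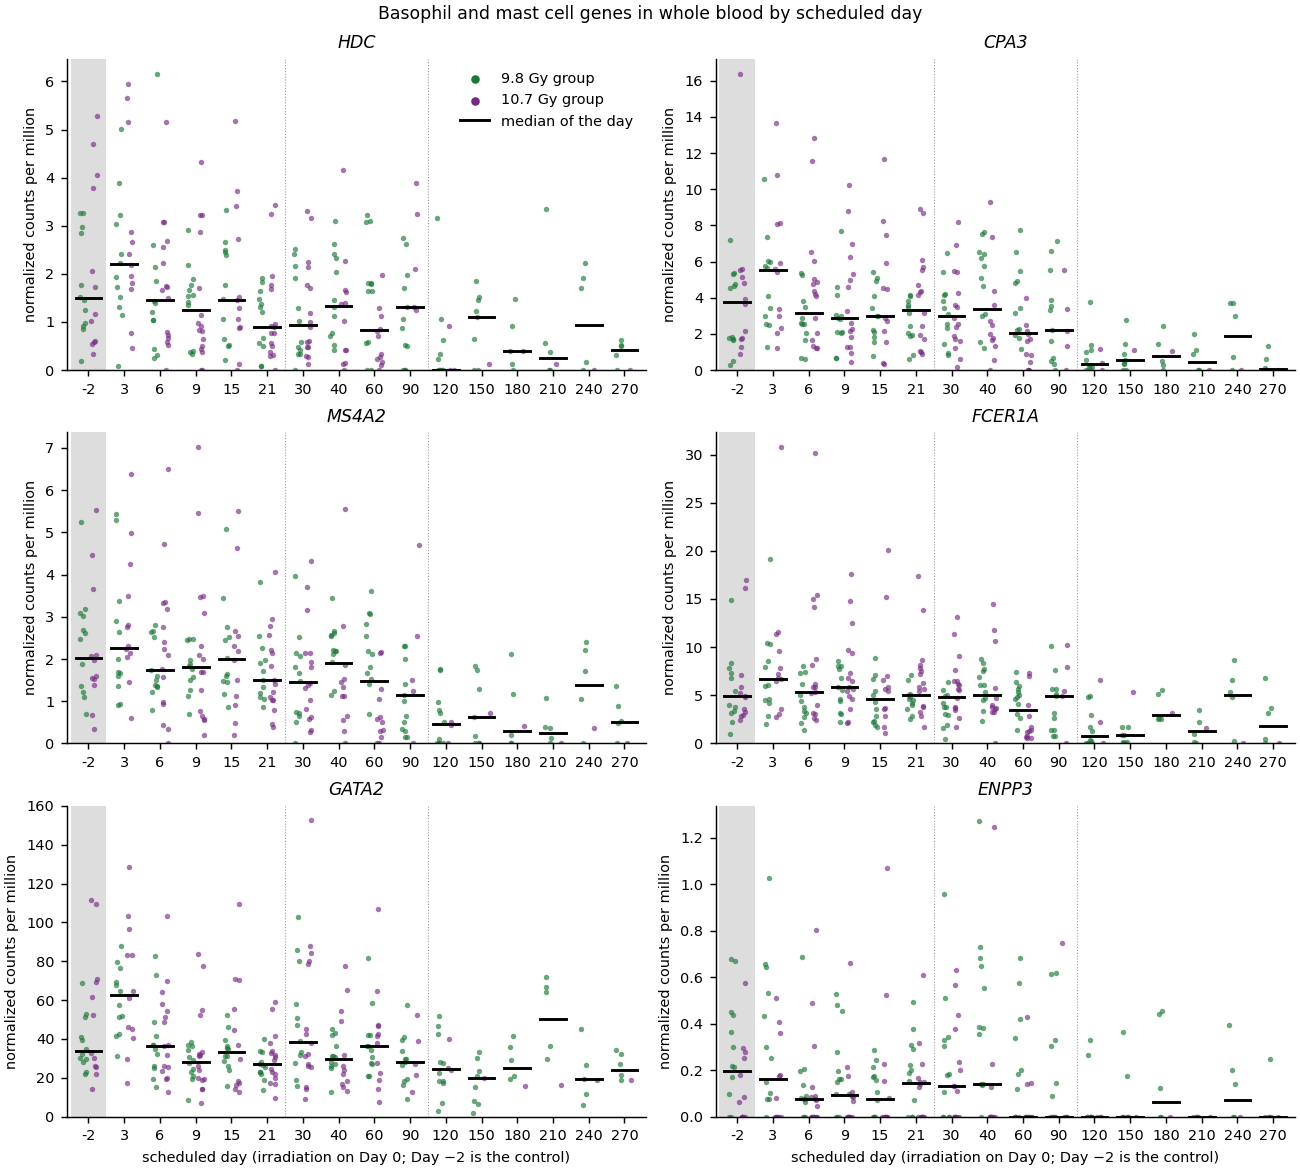
Level in CPM of HDC, CPA3, MS4A2, FCER1A, GATA2 and ENPP3 (vertical axes, each on its own linear scale) in each sample by scheduled day, colored by dose group, with black bars at the median of the day, the control day shaded and dotted lines between the windows. The median of CPA3 was 3.79 before irradiation, 5.52 on Day 3, 2.22 on Day 90 and 0.335 on Day 120.

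The first 3 weeks held little change in the window as a whole. Of the 4 members tested over 24 animals, none was called, that is, none passed edgeR's quasi-likelihood test (Benjamini-Hochberg adjusted p up to 0.05) with a change of 1.5-fold or more, against 1.75% of all genes called lower and 5.79% called higher. None had an unadjusted p under 0.05, and DESeq2 called none. The log2 fold changes were 0.12 (SE 0.13) for CPA3, 0.15 (SE 0.12) for FCER1A, -0.10 (SE 0.11) for MS4A2 and -0.08 (SE 0.09) for GATA2. With no filter, HDC stood at -0.15 (SE 0.14) and ENPP3 at -0.36 (SE 0.31). All comparisons with the control in the following paragraphs share these control samples.

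Day by day, the early window was less flat. On Day 3, GATA2 ranged from 17.3 to 128.5 CPM with a median of 62.9, against 33.95 in the controls, and was higher than the own control in 20 of 24 animals. Its log2 fold change was 0.56 (SE 0.10, edgeR adjusted p = 5.2e-05), just under the fold limit. CPA3 stood at the same 0.56 (SE 0.16, edgeR adjusted p = 0.0037) and was higher in 17 of 24 animals, and FCER1A at 0.41 (SE 0.13, edgeR adjusted p = 0.0086) in 18 of 24. No member was called on Day 3 by edgeR (3 of 4 had an unadjusted p under 0.05), while DESeq2 and TMM scaling each called 2 higher, CPA3 and GATA2. Of all genes, 6.89% were called higher and 4.62% lower. GATA2 then fell below the control on Day 9 (log2 fold change -0.60, SE 0.12, edgeR adjusted p = 0.00021) and Day 21 (-0.61, SE 0.10, edgeR adjusted p = 1.4e-05), days on which 2.43% and 2.73% of all genes were called lower. HDC fell on Day 21 (-0.87, SE 0.19, edgeR adjusted p = 0.00037, against 2.89% called lower with no filter). The other members tested were not called on those days. All 7 megakaryocyte and platelet markers were called higher on Day 3 (median log2 fold change 1.22), a list whose cells also use GATA2; its part in the GATA2 value was not tested.

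Between Day 21 and Day 90, MS4A2 and HDC were lower than before irradiation. MS4A2 per animal, with draws of the window summed, ranged from 0.350 to 5.79 CPM with a median of 2.11 in the controls and from 0.438 to 3.30 with a median of 1.52 in the medium window. The groups overlapped widely, but 21 of 24 animals were lower than their own control. Its log2 fold change was -0.61 (SE 0.15, edgeR adjusted p = 0.0016), and it was the only one of the 4 tested members called, against 1.27% of all genes called lower. HDC was lower in 18 of 24 animals (-0.63, SE 0.16, edgeR adjusted p = 0.0033, no filter, where 1.29% of genes were called lower). CPA3 (-0.23, SE 0.19), FCER1A (-0.31, SE 0.14), GATA2 (-0.30, SE 0.13) and ENPP3 (-0.21, SE 0.40) were not called. The MS4A2 call sat at the fold limit: its log2 fold change was -0.58 with TMM scaling, -0.57 with DESeq2 and -0.26 in a fit with numbering series as a term, none of them called. It was also lost on leaving out any 1 of 7 of the 24 animals (B1006, B1502, B1503, B2003, B2004, B2501 or B2508, values from -0.58 to -0.54).

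After Day 90 the members other than GATA2 were several-fold lower. CPA3 summed over the late draws of each of the 14 animals with a control ranged from 0 to 2.86 CPM with a median of 0.483, against 0.269 to 7.11 with a median of 3.73 before irradiation. It was lower in 13 of 14 animals and had no count in 3 of them, although 9 of the 14 late values lay at or above the lowest control. Its log2 fold change was -2.21 (SE 0.44, edgeR adjusted p = 0.00039), the largest decline among the members.

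The alpha and beta chains of the IgE receptor fell as well. FCER1A, the chain that binds IgE, ranged from 0 to 4.09 CPM with a median of 1.36 in the late window, against 0.982 to 14.6 with a median of 4.64 in the controls. The ranges overlapped, and 13 of 14 animals were lower than their own control. Its log2 fold change was -1.69 (SE 0.42, edgeR adjusted p = 0.0026). MS4A2, the beta chain, had a median of 0.627 CPM (0 to 1.91), against 2.23 (0.679 to 5.17) in the controls, and was lower in 12 of 14 animals. Its log2 fold change was -1.87 (SE 0.47, edgeR adjusted p = 0.0027). The gamma chain of the same receptor, FCER1G, which many myeloid cells use with other receptors, moved the other way (log2 fold change 1.13, SE 0.15, edgeR adjusted p = 1.4e-05).

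HDC, the histamine-forming enzyme, fell with them: its late median was 0.385 CPM (0 to 1.75), against 1.63 (0.196 to 4.01), and 13 of 14 animals were lower (log2 fold change -1.70, SE 0.37, edgeR adjusted p = 0.00099, no filter). ENPP3 was at 0 in the late sums of 8 of 14 animals and lower in 9, with 3 equal and 2 higher (-1.95, SE 0.65, edgeR adjusted p = 0.024, no filter). Its late sums rested on 25 counts in all, so its fold is imprecise. GATA2 stood apart. Its late values ranged from 15.9 to 50.9 CPM with a median of 27.2, against 21.4 to 109.8 with a median of 33.2, with 10 of 14 animals lower. Its log2 fold change was -0.53 (SE 0.20, edgeR adjusted p = 0.027), which did not reach the fold limit. It was called without animal B1004 (-0.59) or B1506 (-0.62), with the deposited log2 values in limma (-0.62), without the pairing by animal (-0.62), and in both fits by numbering series given below.

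In all, 3 of the 4 members tested were called lower and none higher in the late window, against 18.5% of all genes called lower and 14% called higher. With no filter 5 of 6 were called lower, against 10.5%. The median log2 fold change of the 4 was -1.78, and that of all genes tested -0.13. All 6 were below the control in 5 of the 14 animals, 5 were in 6 animals, 4 in 1 animal and 3 in 2 animals. The 3 calls kept with TMM scaling, with DESeq2, without any 1 animal, and in the 12 animals of the 9.8 Gy group alone (CPA3 -2.35, FCER1A -1.86, MS4A2 -1.98). The row LOC697943, matched to MS4A3, was not called (log2 fold change 0.67, SE 0.32, edgeR adjusted p = 0.11, no filter) and was higher in 10 of 14 animals.

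**Figure D2:**
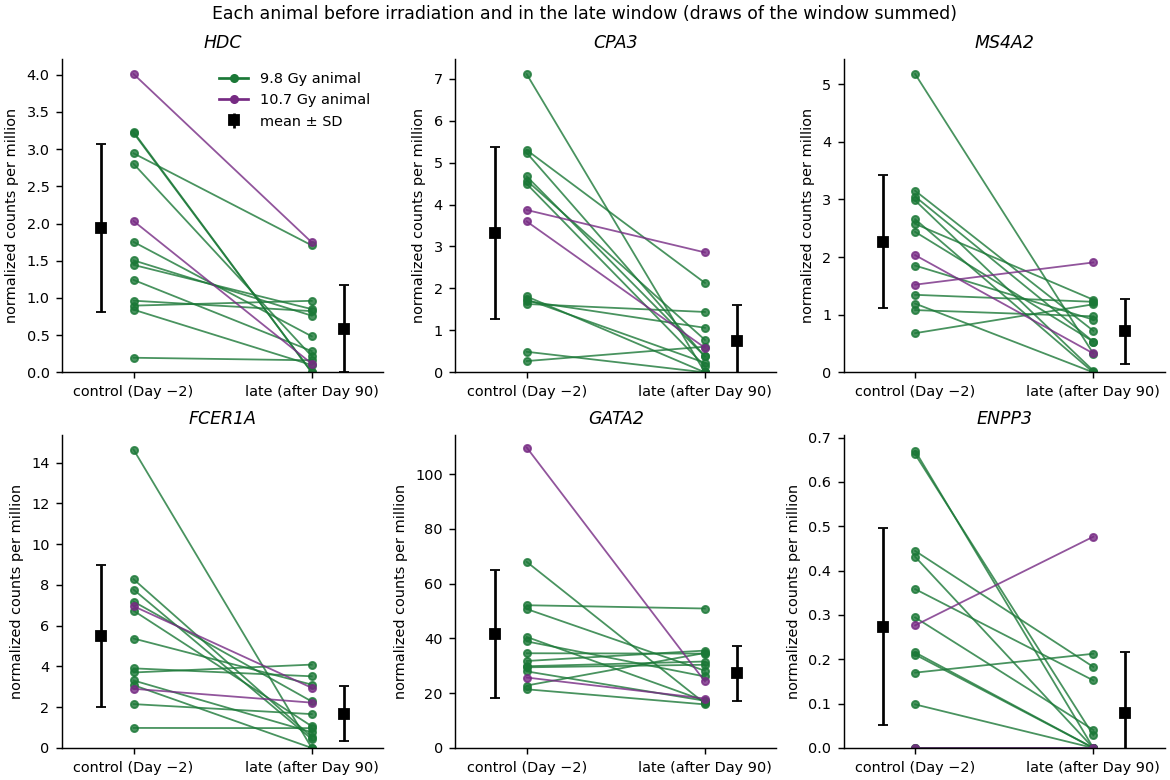
Each of the 14 animals with a control and late draws, as a line from its control level (Day -2) to its level over the summed late draws, in CPM, with black squares at the mean and bars of 1 SD. CPA3, FCER1A and HDC were lower in 13 of 14 animals, MS4A2 in 12, GATA2 in 10 and ENPP3 in 9.

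Numbering series moved with the late window, since only 1 of the 14 animals had late draws of its control's series. With every sample in 1 fit and series as a term, CPA3 was at -2.03, MS4A2 at -1.44, FCER1A at -1.21 and GATA2 at -0.74, all 4 called. In that fit and the next each draw was a sample, so repeated draws of an animal counted as replicates. Among series C samples alone, with only 4 controls and no pairing by animal, CPA3 was at -1.60 (edgeR adjusted p = 0.083), MS4A2 at -1.36 (edgeR adjusted p = 0.11), FCER1A at -0.81 (edgeR adjusted p = 0.42) and GATA2 at -1.22 (edgeR adjusted p = 0.014), so only GATA2 was called.

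The step down lay between the medium and the late window, which could be compared in 16 animals without the controls. CPA3 went from 1.19 to 6.20 CPM with a median of 3.15 in the medium window to 0 to 2.84 with a median of 0.378 in the late window, lower in 15 of 16 animals. Only 3 of the 16 late values reached the lowest medium value. Its log2 difference was -2.32 (SE 0.38, edgeR adjusted p = 6.2e-05). FCER1A fell by 1.69 on the log2 scale (SE 0.34, edgeR adjusted p = 0.00034), from a median of 5.06 to 1.19 CPM, and MS4A2 fell by 1.56 (SE 0.35, edgeR adjusted p = 0.00094), from 1.46 to 0.530 CPM, each in 15 of 16 animals. HDC (-1.19, SE 0.37, edgeR adjusted p = 0.012) and ENPP3 (-1.98, SE 0.54, edgeR adjusted p = 0.0055) were also called with no filter, while GATA2 (-0.43, SE 0.15, edgeR adjusted p = 0.017) was below the fold limit. Thus 3 of 4 tested members were called, against 12.6% of all genes called lower, and 5 of 6 with no filter, against 6.01%. Within series C, which supplied draws of both windows, the values were -2.44 for CPA3, -1.67 for FCER1A, -1.60 for MS4A2 and -0.53 for GATA2, with the same 3 called. From the early to the medium window no member was called by edgeR or DESeq2 over 28 animals, though 3 of 4 had an unadjusted p under 0.05 (MS4A2 -0.50, SE 0.12; FCER1A -0.44, SE 0.12; CPA3 -0.39, SE 0.15), and 2.3% of all genes were called lower.

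By single days after Day 21, the members were called lower at different times. MS4A2 was called lower on Day 30 (-0.70, SE 0.19, edgeR adjusted p = 0.0072, 1.33% of genes called lower) and Day 90 (-0.98, SE 0.34, edgeR adjusted p = 0.042, 3.19%), HDC on Day 30 (-0.82, SE 0.24, edgeR adjusted p = 0.015, 1.13% with no filter) and FCER1A on Day 60 (-0.89, SE 0.28, edgeR adjusted p = 0.027, 1.92%). The MS4A2 and FCER1A calls were not firm, and for HDC no other fit was run on single days. The MS4A2 calls were lost with series as a term (Day 30 -0.46, Day 90 -0.89), without the pairing by animal (-0.70 and -0.85) and in the 6 animals drawn on Day 270 (-0.96 and -0.75). The FCER1A call was lost with series as a term (-0.81) and was 0.092 in the 6 animals drawn on Day 270. CPA3 was not called lower on any day up to Day 90, except on Day 60 with series as a term (-1.02, edgeR adjusted p = 0.041). On Day 120 its log2 fold change over 12 animals was -2.30 (SE 0.57, edgeR adjusted p = 0.0039). FCER1A (-2.15, SE 0.62, edgeR adjusted p = 0.01) and MS4A2 (-2.16, SE 0.55, edgeR adjusted p = 0.0048) were called on the same day. So 3 of 4 tested members were called on Day 120, against 19.1% of all genes called lower. HDC, at 0 in 8 of 14 samples of Day 120, was called in the fit with no filter (-2.57, SE 0.58, edgeR adjusted p = 0.0022), where 9.84% of genes were called lower. CPA3 stayed called on Day 150 (-1.98), Day 180 (-1.83, 9.86% of genes called lower) and Day 210 (-2.49, 16.9%). FCER1A (-2.54 and -2.10) and MS4A2 (-1.77 and -2.96) were called on Days 150 and 210. HDC was called on Day 180 (-1.89, SE 0.56, edgeR adjusted p = 0.02) and Day 210 (-1.95, SE 0.59, edgeR adjusted p = 0.02), days on which 6.5% and 9.35% of genes were called lower with no filter. ENPP3 had no count in any of the 6 samples of Day 210. GATA2 was called lower on Day 150 (-1.09, SE 0.38, edgeR adjusted p = 0.034, all 4 tested members called, against 19.5% of genes; 3 of 4 with TMM scaling).

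**Figure D3:**
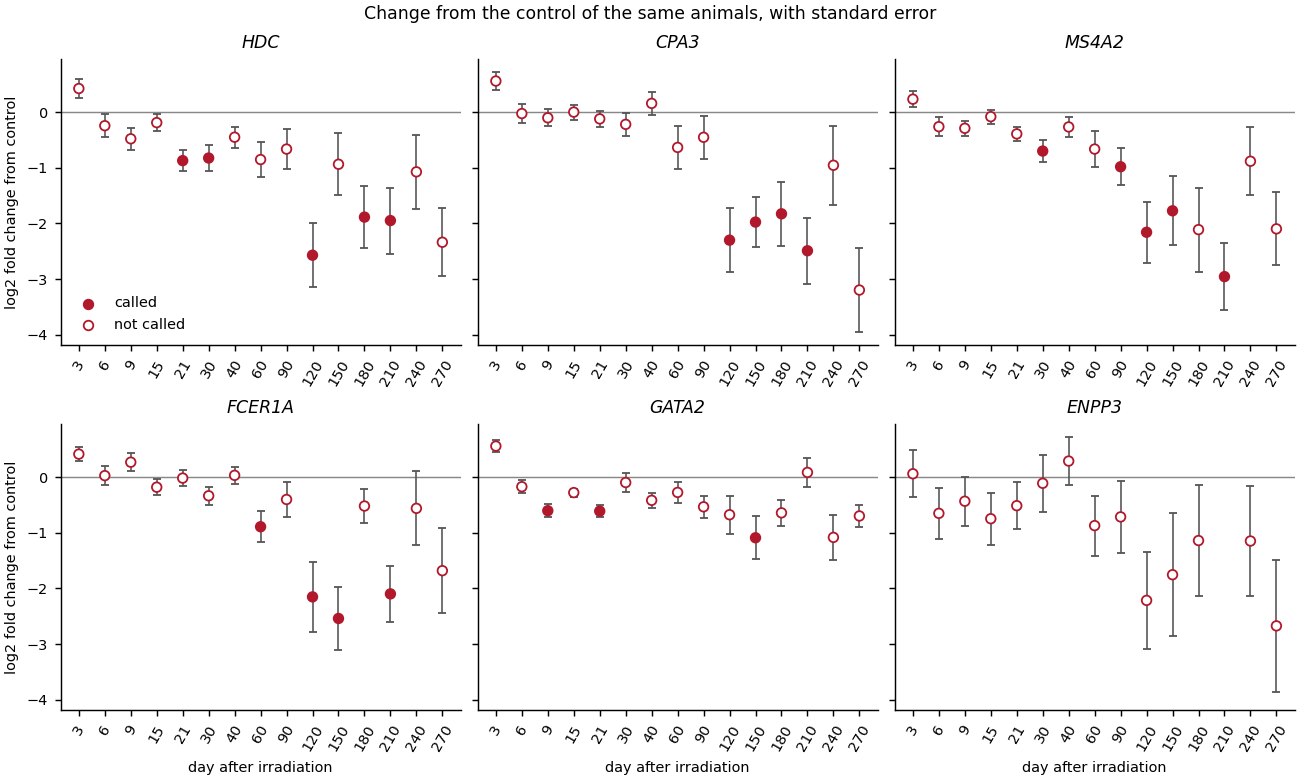
Log2 fold change from the control of the same animals (points) with its standard error (bars) on each scheduled day, 6 to 24 animals a day; filled points are called. HDC and ENPP3 are from the fit with no filter, and ENPP3 on Day 210, when all 6 samples were at 0, has no point.

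The decline was not even across the late days. On Day 180 FCER1A and MS4A2 were not called. FCER1A was then lower than the control in 4 of 6 animals and higher in 2, with a median of 3.03 CPM against 4.89 before irradiation. MS4A2 was lower in 5 of 6. GATA2 was higher than the control in 4 of 6 animals on Day 210. On Day 240, none of the 4 was called by edgeR or DESeq2 (1 and 2 with an unadjusted p under 0.05), with CPA3 at -0.95 (SE 0.71) and FCER1A at -0.56 (SE 0.67), while 3.51% of genes were called lower. With series as a term, CPA3 (-1.35, edgeR adjusted p = 0.026) and GATA2 (-1.30, edgeR adjusted p = 0.0006) were called lower on that day. CPA3 was 3.69 CPM in animal B1003, 3.02 in B1004 and 3.71 in B1505 on that day, and between 0 and 0.709 in the other 3 animals. On Day 210 the same 3 animals had 0.864, 0 and 1.98 CPM, and on Day 270 they had 1.36, 0.130 and 0.632. FCER1A was 8.66, 6.56 and 5.31 CPM in these 3 on Day 240, and a further animal, B1502, had 4.79 CPM, so FCER1A did not split the animals as CPA3 did. On Day 240, B1004 was of series C and B1003 and B1505 were of series B, while the controls of all 3 were of series A. On Day 270, CPA3, MS4A2, HDC and GATA2 were below the control in all 6 animals. CPA3 was at -3.20 (SE 0.75). In the filtered edgeR fit none was called and only 1 gene in all was (0.00727%), although all 4 tested had an unadjusted p under 0.05. DESeq2 called 2 of them, edgeR with no filter called CPA3 (-3.14, edgeR adjusted p = 0.037) but not HDC (-2.34, edgeR adjusted p = 0.052), and edgeR with series as a term called all 4.

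The 2 dose groups differed in CPA3 at Day 30 to 60, the draws summed per animal. At 9.8 Gy, CPA3 ranged from 1.49 to 6.94 CPM with a median of 3.83, against a control median of 3.19, and 4 of 12 animals were below their control. At 10.7 Gy it ranged from 0.471 to 5.77 with a median of 2.24, against a control median of 3.79, and 10 of 12 were below. The doses overlapped. The difference in the change from control (10.7 minus 9.8 Gy) was -1.19 on the log2 scale (SE 0.30, edgeR adjusted p = 0.011), the only call among the 4 tested members, against 0.56% of all genes called lower and 3.37% called higher at the higher dose. It was -1.16 with DESeq2, -1.14 with TMM scaling, and -1.35 (SE 0.39, edgeR adjusted p = 0.048) in the 20 animals with a series A control and series C draws. On Day 60 alone CPA3 had a median of 3.28 CPM at 9.8 Gy with no sample of 12 at 0, and of 1.25 CPM at 10.7 Gy with 3 of 12 at 0.

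The other members were not called for dose, and their intervals did not exclude a difference of the same sign. MS4A2 was below its control in 11 of 12 animals at 10.7 Gy and 7 of 12 at 9.8 Gy (log2 difference -0.67, SE 0.28, edgeR adjusted p = 0.14). HDC (-0.62, SE 0.34), GATA2 (-0.49, SE 0.27), FCER1A (-0.32, SE 0.25) and ENPP3 (-0.29, SE 0.87) were smaller. In the early window no member differed by dose, with none called by edgeR or DESeq2, none with an unadjusted p under 0.05, and 0 of all genes called. The same held for the difference between the sexes in the early and the medium change. For CPA3 those differences were 0.05 (SE 0.27) and 0.37 (SE 0.37).

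**Figure D4:**
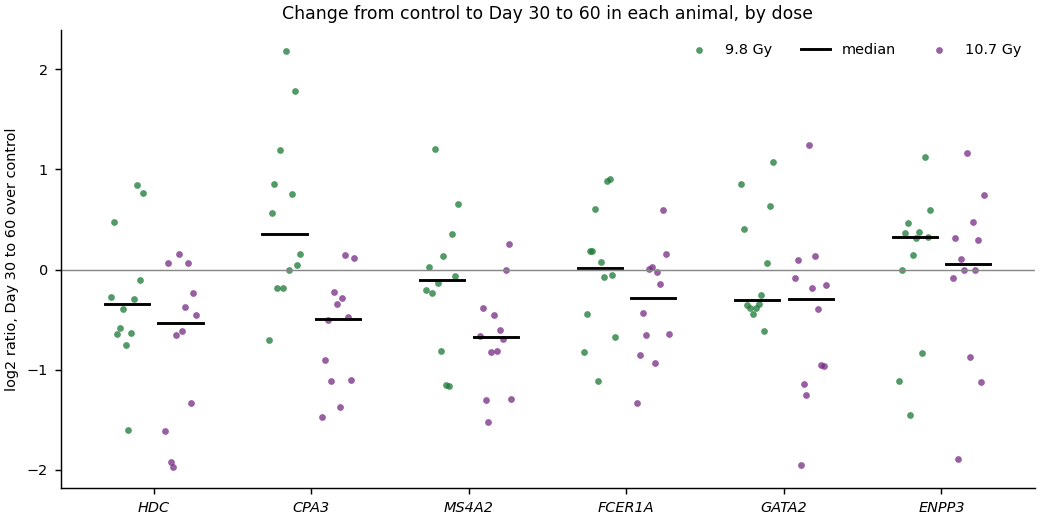
Log2 ratio of the Day 30 to 60 level over the own control for each of 24 animals (points), by gene and dose group, with black bars at the median. For CPA3 the median ratio was 0.36 at 9.8 Gy and -0.49 at 10.7 Gy.

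For the 22 animals that ended before Day 270, the last draw was compared with the draw before it. CPA3 was at 0 in 11 of the 22 last draws and lower than in the preceding draw in 15 animals, higher in 5 and equal in 2. Its log2 difference was -1.44 (SE 0.56, edgeR adjusted p = 0.21), and that of FCER1A -1.14 (SE 0.48, edgeR adjusted p = 0.22), also lower in 15 of 22. MS4A2 (-0.35, SE 0.47) and GATA2 (0.01, SE 0.23) were near 0. No member was called by edgeR, which called 0 genes, or by DESeq2, and 2 of 4 had an unadjusted p under 0.05.

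Genes that work with the members were followed as lists, and each count of calls below stands against the 18.5% of all genes called lower and 14% called higher in the late window. Of 13 further basophil genes, 10 were tested in the late window, where 3 were called lower and 1 higher (median log2 fold change -0.15). The 3 were AKAP12, a kinase anchor (-1.36, SE 0.29), IL3RA, the receptor of the basophil growth factor interleukin-3 (-1.22, SE 0.31), and GCSAML (-1.04, SE 0.28), with edgeR adjusted p of 0.00076, 0.0027 and 0.0047. CSF2RB, the chain that pairs with IL3RA and is used across myeloid cells, was called higher (1.19, SE 0.21, edgeR adjusted p = 0.00017). HRH4 (-0.42, SE 0.36) and SLC45A3 (-0.36, SE 0.18) were not called, nor were the other tested genes of the list, which are not named here. Summed over the 12 listed genes with a row, the level went from a median of 791 CPM (429 to 2186) in controls to 1626 (470 to 4625) in late samples. The summed level therefore did not fall with the members, but a sum mostly follows the most abundant genes of its list. The 3 genes called lower had median counts of only 18.5 to 27 per sample and weighed little in it. The share of each gene in the sum was not examined. By its median (-0.15), the list lay near all genes tested (-0.13). IL3RA was also lower in the medium window (-0.71, SE 0.14, edgeR adjusted p = 0.00012).

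Of 10 mast cell genes, 4 were tested, with 2 called in each direction. CMA1, the chymase, fell (-1.54, SE 0.25, edgeR adjusted p = 8.7e-05), as did HPGDS, which makes prostaglandin D2 (-0.83, SE 0.31, edgeR adjusted p = 0.029), whereas KIT, the stem cell factor receptor, rose (1.86, SE 0.35, edgeR adjusted p = 0.00025) and so did MITF (1.03, SE 0.18, edgeR adjusted p = 0.00014). CMA1 was lower in the medium window too (-0.65, SE 0.10, edgeR adjusted p = 6.1e-06). Downstream of the IgE receptor, 16 signaling genes were tested, with 3 called lower, PLCG1 (-1.07, SE 0.18), FYN (-0.70, SE 0.11) and LAT (-0.63, SE 0.14), and 3 higher, FCER1G, GAB2 (1.11, SE 0.25) and LYN (0.74, SE 0.18), shares near those of all genes. With TMM scaling the counts were 2 lower and 3 higher. SYK (0.30, SE 0.17) and BTK (0.08, SE 0.09) were not called.

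Receptors through which basophils can be activated mostly moved against the members. Of 11 tested, 9 were called higher and 1 (IL3RA) lower, and the median log2 fold change was 1.30. The highest were IL1RL1, the interleukin-33 receptor (3.86, SE 0.59), IL18RAP (3.14, SE 0.47), IL18R1 (3.06, SE 0.46) and C3AR1, a complement receptor (2.51, SE 0.25). Several of these serve other leukocytes as well. Of 5 histamine genes tested, the degrading enzyme HNMT (1.13, SE 0.23) and the receptors HRH1 (1.72, SE 0.32) and HRH2 (0.76, SE 0.11) were called higher and none lower. Among 13 transcription factors of basophils and mast cells, 6 were called higher, led by CEBPB (1.90, SE 0.26), SPI1 (1.38, SE 0.18) and CEBPA (1.27, SE 0.22), and 1, IRF8 (-0.60, SE 0.09), lower, a call that was lost with TMM scaling. Of the MS4A relatives the 2 tested were called lower, MS4A1, the B cell antigen CD20 (-1.67, SE 0.21), and MS4A7 (-0.77, SE 0.24). None of the 3 ENPP relatives tested was called.

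Markers of other blood cells moved in both directions in the same samples. Summed dendritic cell markers, whose cells share FCER1A, went from 166.1 to 1395 CPM with a median of 445 in controls to 48.5 to 478 with a median of 175 in late samples. Of the 7 tested genes of that list, 2 were called lower and 2 higher, so the calls were split although the sum fell. Summed monocyte markers went from a median of 1652 CPM (696 to 4574) to 3208 (1253 to 5793), with 4 of 7 called higher, and summed eosinophil markers from 70.8 CPM (28.3 to 208) to 126.6 (19.0 to 1098), with 4 of 6 called higher. All 3 granulocyte progenitor markers tested, 7 of 7 megakaryocyte and platelet markers, 3 of 9 erythroid markers and 2 of 7 stem and progenitor markers were called higher, and 1 erythroid marker, HBB (-1.46, SE 0.57), lower, a call lost with TMM scaling. The share of these cells in the members' values was not tested. The scaling moved the whole late comparison: the median log2 fold change of all genes was -0.13 with upper-quartile scaling, -0.03 with TMM and -0.01 with DESeq2, and the calls were 2548 lower and 1919 higher, 1887 and 2270, and 1784 and 2434.

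**Figure D5:**
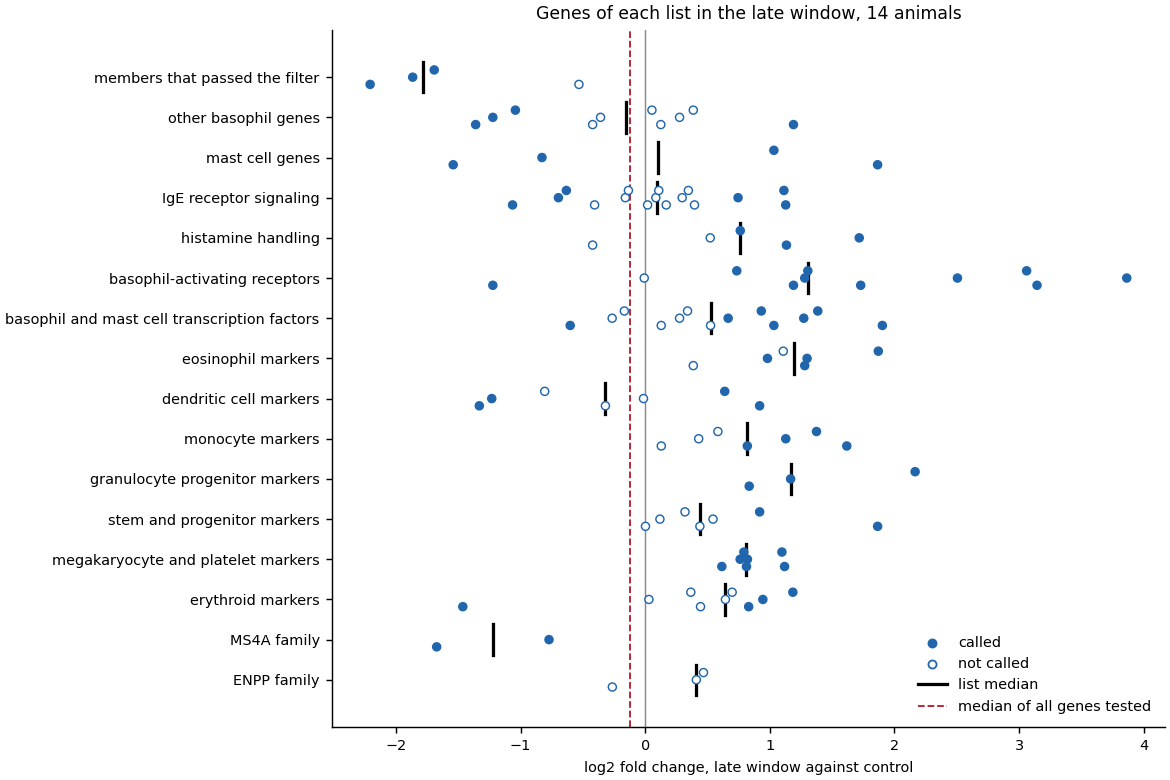
Log2 fold change in the late window against control (horizontal axis, 14 animals) of every tested gene in each list, filled where called, with black bars at the list median and a dashed line at the median of all genes tested, -0.13. The members lie at the low end (median -1.78) and the basophil-activating receptors at the high end (median 1.30).

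The genes most like the members were found by correlating the log2 level of every tested gene with the mean of the 4 tested members, as a description, since the 304 samples share animals and libraries. SLC24A2 was the nearest non-member over all samples (Pearson r 0.73), followed by AKAP12 (0.69), EPDR1 (0.69), GCSAML (0.69) and LAMA4 (0.67), with CMA1 at 0.66. On deviations from the mean of each animal, CMA1 came first (0.77) and LAMA4 second (0.72). MRPS27 (0.72), CD38 (0.71), LBH (0.71) and CD4 (0.71) were close behind. Within the 150 samples of series C the nearest were SBK1, RFTN1, CD38 and PLD4 (each 0.71). Running against the members there were IL1R2 (-0.74), SGMS2 (-0.72) and, among others, the mast cell gene KIT (-0.70). Over the 24 controls alone the nearest were GCSAML (0.80), IL3RA (0.79), EPDR1 (0.77) and HRH4 (0.77). The genes that ran most strongly against the members over all samples were SGMS2 (-0.64), NECAP1 (-0.63) and IL1R2 (-0.62). Among the members themselves, CPA3 was most like the mean of the other 3 (r 0.85), then MS4A2 (0.81) and FCER1A (0.73), while GATA2 was the least alike (0.52). The gene nearest to GATA2 was SLC24A2 (0.63), and no other member was among its 3 nearest.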

How the data were processed

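Whole-blood total RNA was sequenced after ribosomal depletion with a stranded kit (304 libraries). Per the labels and the study's methods, the authors trimmed reads with cutadapt 2.10, aligned them with STAR 2.7.6a to Mmul_10 and counted them per gene with Subread 2.0.1. The deposited count table holds raw counts per gene, and a second deposited table holds the log2 of upper-quartile-scaled counts, used as an alternative. Counts of each animal were summed per window. Each comparison was fitted with edgeR 4.0.16 (quasi-likelihood test, upper-quartile scaling, animal as a block) on 13751 genes with at least 3 counts in 80% of samples. Differences by dose or sex in the change from control were interaction terms in such fits. The comparison of females with males before irradiation had 1 control per animal, so it had numbering series as a term in place of the block. A gene was called when its p, adjusted over all genes by Benjamini-Hochberg, was up to 0.05 and its change 1.5-fold or more. Per-animal log2 ratios for display used a prior count of 2. Depth per sample is given with the results.

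DESeq2 1.42.0, limma 3.58.1, TMM scaling, other filters, fits without the block, fits by numbering series and leaving out each animal were alternatives. The animal pairs control and later samples by design; deviations of the same animal correlated above 0.1 in 24 of 24 early, 23 of 24 medium and 12 of 14 late pairs. Of 1750 pairs of samples within a group, 0 were identical. On simulated late data over 13751 genes, edgeR recovered 200 of 200 genes changed by a fold of 3, with 9 false calls, and DESeq2 200 with 25. The simulation gave every gene the same dispersion, had no animal or series effect and drew the changed genes from all levels. It checks the code only and cannot give the power or the false calls for genes as low as the members. Correlations used 100000 permutations and are two-sided. Members, lists and tests were chosen with earlier results of these data known. Named genes are all members and, in each list, those called with the largest changes; list genes named as not called (HRH4, SLC45A3, SYK and BTK) were chosen after their values were seen. MS4A3 had no row, so its pairs were not computed. Labels do not say more of replicates than the animal. The p-values measure the spread between animals, except in the fits over all samples with series as a term and in the unpaired series C fit. Those fits took single draws, so their p-values rest in part on the spread between draws of an animal.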

Additional observations from a re-analysis of the deposited data

Results flagged for a closer look

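Dixon's test was run 35 times, once for each member in each dose and day group of 4 to 10 samples that was not at 0 throughout, and 3 tests picked out a sample. For normally distributed values chance does so in about 1 in 20. That rate does not apply to a group with all samples but 1 at 0, where the test always picks out the remaining sample. HDC on Day 210 at 9.8 Gy was 3.36 CPM in animal B1505, against 0.560 CPM in the next of the 5 samples. ENPP3 on Day 90 at 10.7 Gy was 0.746 CPM in animal B2504, with the other 4 samples at 0. ENPP3 on Day 270 at 9.8 Gy was 0.247 CPM in animal B1003, with the other 4 samples at 0. The 2 ENPP3 values rest on 5 and 2 counts.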

How the results depend on the processing

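The animal block changed the member count called lower in 3 comparisons: with no replicate block 0 members were called on Days 9, 30 and 90 (1 each with the pairing), and it turned values that were not called, CPA3 on Day 15 (-0.054), GATA2 on Day 30 (0.023) and FCER1A on Day 40 (-0.041). It changed no other count beyond 1.5 times; in the late window 4 members were called without it, GATA2 added at -0.62. The late count was 3 to 4 and the medium count 0 to 1 on leaving out 1 animal at a time.

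The medium count was 0 with TMM scaling, DESeq2, its size factors in edgeR, a filter of 10 counts or numbering series as a term. The late count was 1 with a filter of 10 counts, which left FCER1A and GATA2 to test, and 1 within series C with no replicate block. On Day 3, DESeq2 and TMM scaling called 2 members higher. With series as a term, Day 30 had 0 called lower, Day 40 had 1, Day 180 had 3, Day 240 had 2 and Day 270 had 4, and within the series of the own control Day 40 had 1. DESeq2 called 2 on Day 180 and 2 on Day 270, and no filter called 3 and 1. In animals drawn on Day 270 the count was 0 on Days 30, 60 and 90, 1 on Day 120 and 2 on Day 150. From early to medium, series C alone called 1, also with no filter. The cause was not tested.

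Of the values that turned sign, FCER1A on Day 60 was called before the change and the others were called in neither setting. They were CPA3 on Day 6 (0.034 with TMM, 0.039 with DESeq2, 0.049 with series), Day 15 (-0.033 with series, -0.12 in Day 270 animals), Day 40 (-0.38 with series, -0.38 within the own series) and Day 60 (0.059 in Day 270 animals); FCER1A in the medium window (0.066 within the own series), on Day 6 (-0.20 in Day 270 animals), Day 30 (0.54 within the own series), Day 40 (-0.27 within the own series, -0.16 with series) and Day 60 (0.092 in Day 270 animals). MS4A2 turned on Day 3 (-0.22 in Day 270 animals), GATA2 on Day 210 (-0.23 with series) and in the last draw (-0.11 within the same series), ENPP3 from early to medium (-0.52 in series C), and the r of CPA3 with ENPP3 in series A controls (-0.013). Alternatives by series, by scheduled days, by dose, by depth and with no filter for values not tested were added after seeing the data. Depth limits HDC and ENPP3 most, with 224 and 25 counts in the late sums of 14 animals.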
